A study of Homo sapiens with 16 samples.

Results

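The array of GIST T1 cells in which the KRAB zinc finger gene ZNF91 was silenced is described here, 1 of the 16 arrays of the series. It was picked by its label and set against the 13 other knockdown arrays and the 2 siCON arrays, which carried a non-targeting siRNA. GIST T1 is an established line of gastrointestinal stromal tumor cells that depend on mutant KIT, and all 16 cultures were reverse transfected with 50 nM siRNA in medium with serum. The other knockdowns were of 9 zinc finger genes (ZNF708, ZNF665, ZNF528, ZNF43, ZNF431, ZNF429, ZNF254, ZNF100 and ZNF85) and 4 genes of other families (GTF2I, which the labels write as GTF21, IGF2R, IGFBP2 and RASSF8), each with 1 array. The methods of the study state that 4 siRNAs per gene were pooled for the viability screen, and no source used here says whether the array cultures received the same pools, so no array separates the effect of one siRNA sequence from that of another. The siCON arrays are labelled 24 h and 72 h after transfection, and their values are given in that order throughout. A figure legend of the study gives another time for the earlier of them, which was not resolved here, and the times printed are those of the labels. No source used here states when the knockdowns were harvested, so time and treatment cannot be told apart in a difference from siCON. RNA was hybridized to human exon arrays, and a value is the log2 RMA level of 1 of 22011 transcript clusters, which are groups of probes placed on one gene. With 1 array per knockdown, the error of the ZNF91 knockdown was taken from the spread of the other arrays. The interstitial cell of Cajal markers that define GIST were all above the ZNF91 array's median of 7.78. They were KIT (13.39), CD34 (13.24), ANO1 (12.96), ETV1 (11.68), BARX1 (11.37), GPR20 (10.43) and PRKCQ (9.07). All 7 were inside the range of the other 15 arrays. Markers of other cell types had mixed levels. The leukocyte marker PTPRC, at 3.98, the epithelial marker EPCAM, at 4.08, and the endothelial marker PECAM1, at 5.20, were near the bottom of the scale. The leukocyte marker CD14, at 7.27, and the smooth muscle marker DES, at 7.61, were near that median. The epithelial marker KRT18, at 10.05, was above it.

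KRAB zinc finger proteins bind DNA through tandem zinc fingers and, through the KRAB domain, recruit the corepressor TRIM28, which brings histone methylation and heterochromatin to the bound site. ZNF91 is a primate member known for silencing SVA retrotransposons. It lies in a dense group of related genes in band 19p12 that arose by tandem duplication, and its neighbours resemble it in their promoters as well as in their zinc fingers.

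The likeness of the promoters is shown first because the array measured many of these neighbours together with ZNF91. RefSeq promoters (GRCh38.p14) were found for 27 of 36 genes, ZNF91 and 35 relatives of the group. The windows below are the 250 bases before the annotated start, on chromosome 19, at chr19:23395472-23395721 (minus strand) for ZNF91, chr19:22010944-22011193 (minus strand) for ZNF208, chr19:24086937-24087186 (plus strand) for ZNF254, chr19:21836183-21836432 (minus strand) for ZNF43 and chr19:23758892-23759141 (minus strand) for ZNF681. They are printed so that a reader can set the ZNF91 promoter beside those of 4 relatives whose transcripts were low on the ZNF91 array. Capitals mark a 14-base run that more of these promoters share than any other run of that length, and each run CCAATCAG, a form of the CCAAT box.
ZNF91: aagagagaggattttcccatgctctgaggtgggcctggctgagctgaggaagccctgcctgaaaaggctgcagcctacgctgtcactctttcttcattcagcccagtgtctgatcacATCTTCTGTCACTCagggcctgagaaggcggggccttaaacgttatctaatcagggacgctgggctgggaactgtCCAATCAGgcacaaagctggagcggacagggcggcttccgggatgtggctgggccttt
ZNF208: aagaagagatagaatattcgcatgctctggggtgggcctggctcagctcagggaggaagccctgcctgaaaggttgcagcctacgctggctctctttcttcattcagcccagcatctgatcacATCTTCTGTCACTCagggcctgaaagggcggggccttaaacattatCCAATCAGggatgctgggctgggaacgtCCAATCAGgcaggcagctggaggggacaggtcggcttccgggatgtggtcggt
ZNF254: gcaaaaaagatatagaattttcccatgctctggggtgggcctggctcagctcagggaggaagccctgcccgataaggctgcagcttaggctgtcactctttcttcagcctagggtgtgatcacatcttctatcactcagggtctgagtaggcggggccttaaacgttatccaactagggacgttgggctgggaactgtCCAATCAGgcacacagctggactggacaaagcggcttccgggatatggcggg
ZNF43: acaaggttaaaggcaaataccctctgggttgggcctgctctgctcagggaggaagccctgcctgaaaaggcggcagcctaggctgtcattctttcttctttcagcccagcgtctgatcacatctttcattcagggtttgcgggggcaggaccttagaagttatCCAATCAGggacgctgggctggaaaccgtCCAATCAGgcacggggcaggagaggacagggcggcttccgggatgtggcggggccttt
ZNF681: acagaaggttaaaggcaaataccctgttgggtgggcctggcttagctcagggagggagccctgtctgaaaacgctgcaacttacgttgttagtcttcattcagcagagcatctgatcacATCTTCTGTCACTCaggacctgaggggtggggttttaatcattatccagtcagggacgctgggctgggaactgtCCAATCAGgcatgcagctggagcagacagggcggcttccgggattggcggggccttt
The ZNF91 window was identical to that of ZNF208 at 88.8% of its positions, to ZNF254 at 86%, to ZNF681 at 83.6% and to ZNF43 at 83.2%. The run ATCTTCTGTCACTC, searched on both strands, lay in the windows of 16 of the 27 genes, in 0.0456% of all 35116 RefSeq windows of this length and in 0 windows outside the group. The run was chosen from these same windows, so its count describes them only. The shorter run CCAATCAG, also searched on both strands, lay in the windows of 27 of the 27 genes and in 3.81% of all windows, and the runs overlapped in 0 windows of the group. A match is a description of the letters and not of a bound site.

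ZNF91 itself was low on its own array. Its cluster, 3857105, which it shares with the pseudogene ZNF725P, was at 4.67 on the ZNF91 array, at 5.28, 6.35 and 7.29 (lowest, median and highest) on the other knockdown arrays and at 6.87 and 6.84 on the siCON arrays. The ZNF91 array was the lowest of the 16, 0.61 below the next one, the IGF2R knockdown. The difference was −2.18 from the siCON mean and −1.62 ± 0.49 (SE) from the mean of the 13 other knockdowns. Limma did not call it (adjusted p = 0.811 against the 13 others), and the level of this cluster had an SD of 0.55 among the other knockdowns. The cluster is in the dimmest 25% of all clusters by its mean over the arrays, and no detection call shows whether 4.67 is above background, so that the size of these differences is uncertain.

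Other KRAB zinc finger genes of 19p12 were lower on the ZNF91 array too, as the plot of these clusters by array shows. Aside from the ZNF91 cluster, 21 clusters name a gene of the group, and their median was −0.72 from siCON and −0.46 from the 13 other knockdowns. Over all clusters these medians were 0.04 and −0.03, and over 303 other zinc finger clusters with 1 symbol they were 0.01 and −0.02. Of the 21, 16 (76.2%) were below both siCON arrays, 18 (85.7%) below the mean of the 13 other knockdowns and 8 (38.1%) below all other 15 arrays. Those of the 21 with several symbols were included after their values were seen, and some name the same genes. Of the 8 with 1 symbol, 6 (75%) were below both siCON arrays and 6 (75%) below the mean of the 13 others. Below all other 15 arrays were 3 of the 8 (37.5%). Over all 22011 clusters, 34.7% were below both siCON arrays and 57.2% below the mean of the 13 others, while 876 were below all other 15 arrays (3.98%) and 663 above them (3.01%), and none of the 21 was above. At least 1 log2 unit below the siCON mean were 6 of the 21, against 227 of all clusters (1.03%). At least 1 log2 unit above it were 0 of the 21, against 84 of all clusters (0.382%).

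**Figure D1:**
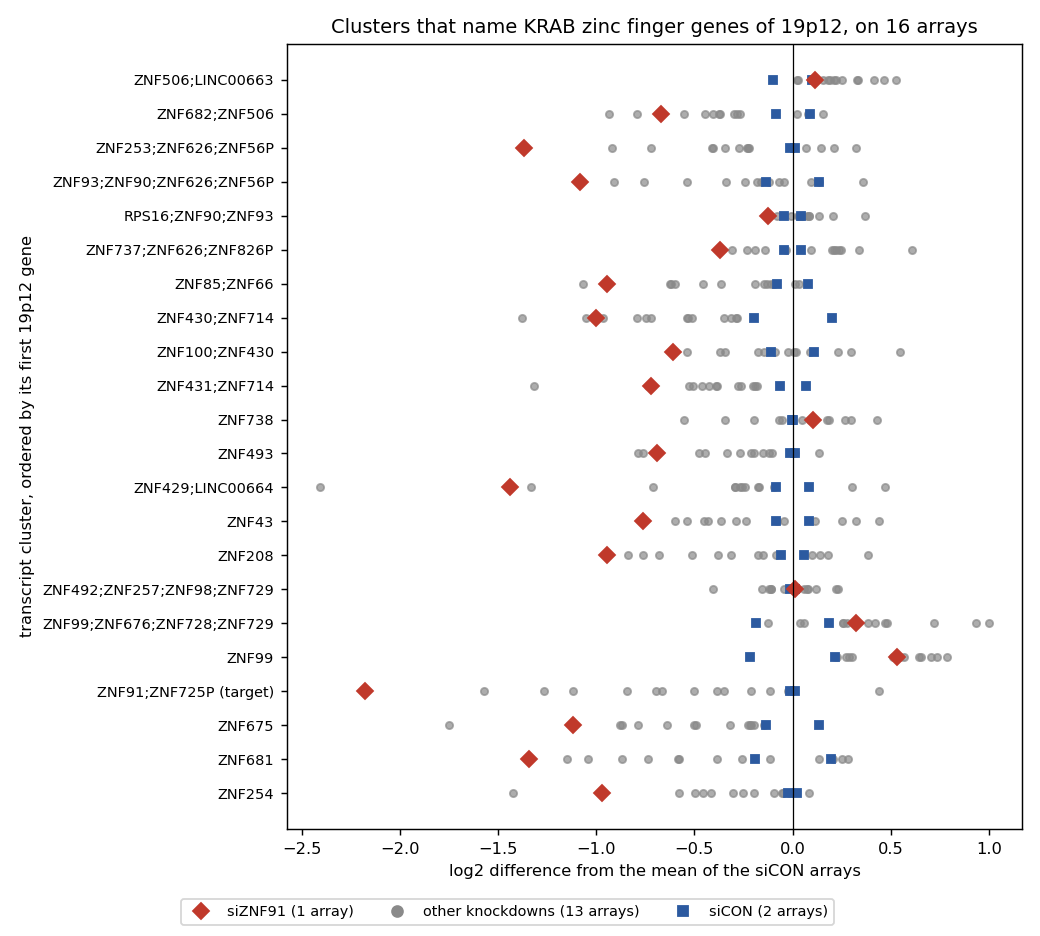
Log2 difference from the siCON mean (horizontal axis) of 22 transcript clusters that name a gene of the 19p12 group, ordered by the first of these genes along the chromosome, with the ZNF91 array as red diamonds, the 13 other knockdown arrays as grey circles and the 2 siCON arrays as blue squares. The ZNF91 array lies left of all other arrays at its own target, at −2.18, and at 8 other clusters, at that of RPS16, ZNF90 and ZNF93 by less than the size of a symbol.

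The largest gap below the other 15 arrays among these neighbours was at the cluster of ZNF253, ZNF626 and ZNF56P. It was at 8.21 on the ZNF91 array, at 8.66, 9.35 and 9.90 (lowest, median and highest) on the other knockdowns and at 9.57 and 9.59 on siCON. ZNF681 was at 7.45 on the ZNF91 array, at 7.65, 8.41 and 9.08 on the other knockdowns and at 8.99 and 8.60 on siCON. ZNF208 was at 5.84 on the ZNF91 array, at 5.95, 6.62 and 7.17 on the other knockdowns and at 6.85 and 6.73 on siCON. For these clusters and for ZNF43 (9.55 on the ZNF91 array, lowest other value 9.71) the ZNF91 array did not overlap any other. On the array of the ZNF43 knockdown itself the ZNF43 cluster was at 9.77, and the lowest other value was that of the GTF2I knockdown. The cluster of ZNF93, ZNF90, ZNF626 and ZNF56P was at 9.52 on the ZNF91 array, −1.08 from siCON and −0.87 from the 13 others.

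Elsewhere in the group the ZNF91 array was low but not the lowest. ZNF675 was at 8.92 on the ZNF91 array and at 10.17 and 9.90 on siCON, a difference of −1.12, but the ZNF431 knockdown was lower at 8.28. ZNF254 was at 8.67 on the ZNF91 array and at 9.62 and 9.67 on siCON, and the lowest array was the knockdown of ZNF254 itself, at 8.22. The cluster of ZNF429 and LINC00664 was at 7.62 on the ZNF91 array and at 9.14 and 8.97 on siCON, with only the knockdown of ZNF429 lower, at 6.65. ZNF493, at 7.28 on the ZNF91 array and 7.96 and 7.98 on siCON, stayed inside the range of the other knockdowns.

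Not all of the group was low. ZNF738 was at 10.41 on the ZNF91 array and at 10.30 and 10.31 on siCON. ZNF99 was at 4.34 on the ZNF91 array and at 4.03 and 3.59 on siCON, in the dimmest 25% of all clusters. The other dim clusters of the group, that of ZNF492, ZNF257, ZNF98 and ZNF729 and that of ZNF99, ZNF676, ZNF728 and ZNF729, differed by 0.01 and 0.32 from siCON. Without the 3 dim clusters the median of the remaining 18 was −0.85 from siCON and −0.57 from the 13 others.

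No cluster of the 21 passed the limma test in either contrast. At an unadjusted p under 0.05, 3 of the 21 were lower than the 13 others and 10 lower than siCON, against 389 and 643 of all clusters. The members are closely related paralogs and 13 of the 21 clusters carry several symbols, so probes may be shared and single values are uncertain. The 8 clusters with 1 symbol had medians of −0.86 from siCON and −0.59 from the 13 others. The cluster of RPS16, which encodes a ribosomal protein, ZNF90 and ZNF93 is numbered between those of PAF1 and EID2B, outside the group, and lay below the other arrays by 0.0012. Without it the medians were −0.74 from siCON and −0.51 from the 13 others, with 7 of 20 below all other 15 arrays, an alternative chosen after seeing the data.

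The group was lower on the ZNF91 array than on any other knockdown array, as the bars of the median by array show. After the ZNF91 knockdown, at −0.72, came the knockdowns of ZNF431 (−0.46), ZNF254 (−0.41) and RASSF8 (−0.34), and the highest was ZNF100 (0.10). These medians share the siCON arrays as their base. The ZNF91 knockdown was the lowest of all 16 arrays at 8 of the 21 clusters, the ZNF431 knockdown at 4 and the ZNF254 knockdown at 3. The 21 leave out the target of the ZNF91 array but keep measured targets of other arrays. The counts of ZNF431 and ZNF254 thus include the clusters that name their own targets, at 7.87 and 8.22 on those arrays. The siRNA sequences were not analysed here, and whether the siRNAs to ZNF91 pair with transcripts of its relatives was not tested.

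**Figure D2:**
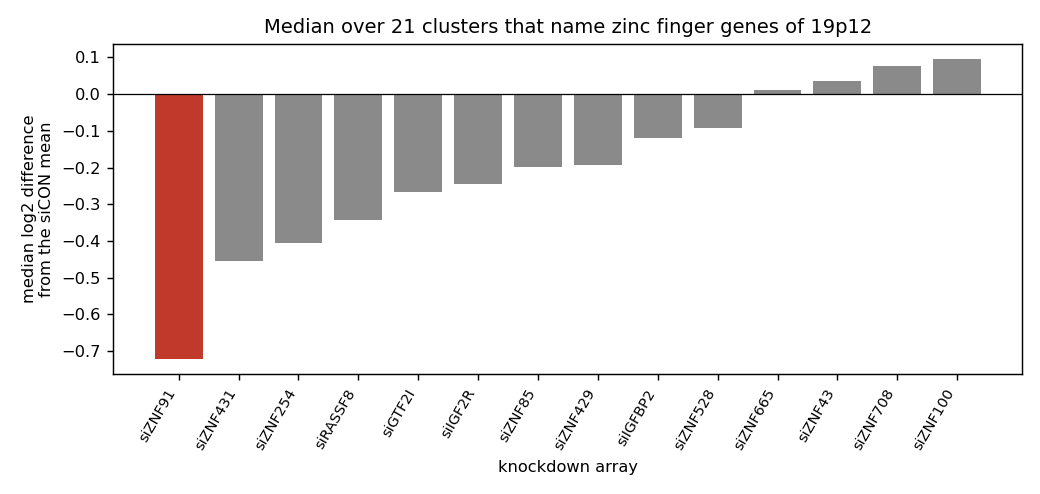
Median log2 difference from the siCON mean over the 21 clusters that name zinc finger genes of 19p12 (vertical axis) for each of the 14 knockdown arrays. The bar of the ZNF91 knockdown, in red, reaches −0.72, and the grey bars of the other knockdowns run between −0.46 and 0.10.

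Measured genes taken before and after the group did not share the decrease as a set. The 12 genes were GATAD2A, CILP2, PBX4, LPAR2, GMIP and ATP13A1 before it, and POP4, PLEKHF1, C19orf12, CCNE1, URI1 and TSHZ3 after it. The study's supplement places POP4 and PLEKHF1 on the long arm, across the centromere from the group. The genes after the group thus do not adjoin it, and where the decrease ends on that side was not tested. The median of the 12 was 0.13 from siCON and 0.06 from the 13 others. Only URI1, which encodes a prefoldin-like chaperone, was below all other 15 arrays, by −0.27 from the mean of the 13 others.

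Across the whole array the ZNF91 knockdown held few changes of its own. Limma called 1 cluster higher (0.00454%) and 23 lower (0.104%) than the 13 other knockdowns, where 288 and 389 had an unadjusted p under 0.05. Against siCON it called 6 higher (0.0273%) and 20 lower (0.0909%), and 16 clusters were called lower in both contrasts. Without siCON 24 h the calls against siCON were 1 higher and 7 lower, with 4 lower in both contrasts, and without siCON 72 h they were 0 higher and 5 lower, with 3 lower in both. With each knockdown tested in turn against the rest, the 24 calls of the ZNF91 array were fewer than the 76 of IGF2R and above the 22 of IGFBP2 and the 21 of ZNF431, and 5 of the 13 others had 1 call or none. That ranking counts each cluster by itself, and many calls of the ZNF91 array lie in a run of unnamed clusters that were low together, described below. With the run left out, the ZNF91 array had fewer calls than IGFBP2 or ZNF431, whose counts were not redone without it. Of the 84 clusters at least 1 log2 unit above the siCON mean, 50 lay inside the range of the 13 other knockdowns, as did 138 of the 227 lower ones. The array closest to it over all clusters was the ZNF708 knockdown, with a root mean square difference of 0.308 log2 units, and the farthest was IGF2R, with 0.459.

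Named genes fell on the ZNF91 array to levels below every other array. DIABLO, which encodes a mitochondrial protein that frees caspases from their inhibitors, stood farthest out. Its cluster, 3475511, was at 8.88 on the ZNF91 array, at 10.05, 10.48 and 10.91 (lowest, median and highest) on the other knockdowns and at 10.51 and 10.62 on siCON. The ZNF91 array was 1.17 below every other array, with a difference of −1.61 ± 0.20 (SE) from the 13 others (limma adjusted p = 0.00173). MSN, which encodes moesin, a linker between membrane and actin, was at 10.54 on the ZNF91 array, at 11.54, 11.75 and 12.05 on the other knockdowns and at 11.98 and 12.22 on siCON. Its difference from the 13 others was −1.24 ± 0.18 (limma adjusted p = 0.00589). RBM23, which encodes an RNA-binding protein of the splicing machinery, was at 8.42 on the ZNF91 array, at 9.37, 9.71 and 9.91 on the other knockdowns and at 9.72 and 9.76 on siCON. The decrease was −1.28 ± 0.17 against the 13 others (limma adjusted p = 0.00292).

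PTPN11 encodes the phosphatase SHP2, which relays signals of receptor tyrosine kinases such as KIT to RAS and ERK. It was at 8.0 on the ZNF91 array, at 8.76, 8.97 and 9.16 on the other knockdowns and at 9.21 and 9.10 on siCON. Its difference from the 13 others was −0.96 ± 0.14 (limma adjusted p = 0.00589), and no other array overlapped the ZNF91 array. TPP1, a lysosomal peptidase, was at 9.96 on the ZNF91 array, at 10.96, 11.18 and 11.49 on the other knockdowns and at 10.63 and 10.63 on siCON. For TPP1 all 13 other knockdowns thus lay above both siCON arrays. It fell by 1.22 against the 13 others (limma adjusted p = 0.00502) but differed by −0.66 from siCON, where it was not called (adjusted p = 0.532).

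Clusters of gene pairs were also called. The cluster of CTNND1, which encodes p120 catenin, and TMX2 was at 10.55 on the ZNF91 array, at 11.35, 11.59 and 11.80 on the other knockdowns and at 11.64 and 11.70 on siCON (limma adjusted p = 0.00502 against the 13 others). The cluster of CASC3, an exon junction complex subunit, and MSL1 was at 9.26 on the ZNF91 array, at 9.92, 10.14 and 10.25 on the other knockdowns and at 9.94 and 9.95 on siCON (limma adjusted p = 0.00589 against the 13 others). Which gene of each pair was lower could not be told apart.

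The other 5 called genes with a symbol of their own had larger adjusted p-values. PICALM, a clathrin assembly protein, was at 8.17 on the ZNF91 array, at 9.0, 9.50 and 10.11 on the other knockdowns and at 9.79 and 9.57 on siCON. KDELR3, a receptor that retrieves proteins to the endoplasmic reticulum, was at 9.06 on the ZNF91 array, at 10.09, 10.32 and 10.96 on the other knockdowns and at 9.54 and 9.35 on siCON. KDELR3 and MARVELD1 (10.56 on the ZNF91 array, siCON mean 10.99) were higher on all 13 other knockdowns than on siCON, so that their differences from siCON were −0.39 and −0.43 while those from the 13 others were −1.34 and −1.05. ELOF1, a transcription elongation factor, and CHMP4B, an ESCRT subunit of membrane scission, differed by −1.08 and −0.87 from the 13 others. Limma's adjusted p was 0.0296 for KDELR3, 0.042 for PICALM, ELOF1 and MARVELD1 and 0.0483 for CHMP4B. Without either siCON array it was 0.0485 for KDELR3, 0.0706 for PICALM, 0.071 for ELOF1 and MARVELD1 and 0.0909 for CHMP4B, so that the last 4 were no longer called.

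**Figure D3:**
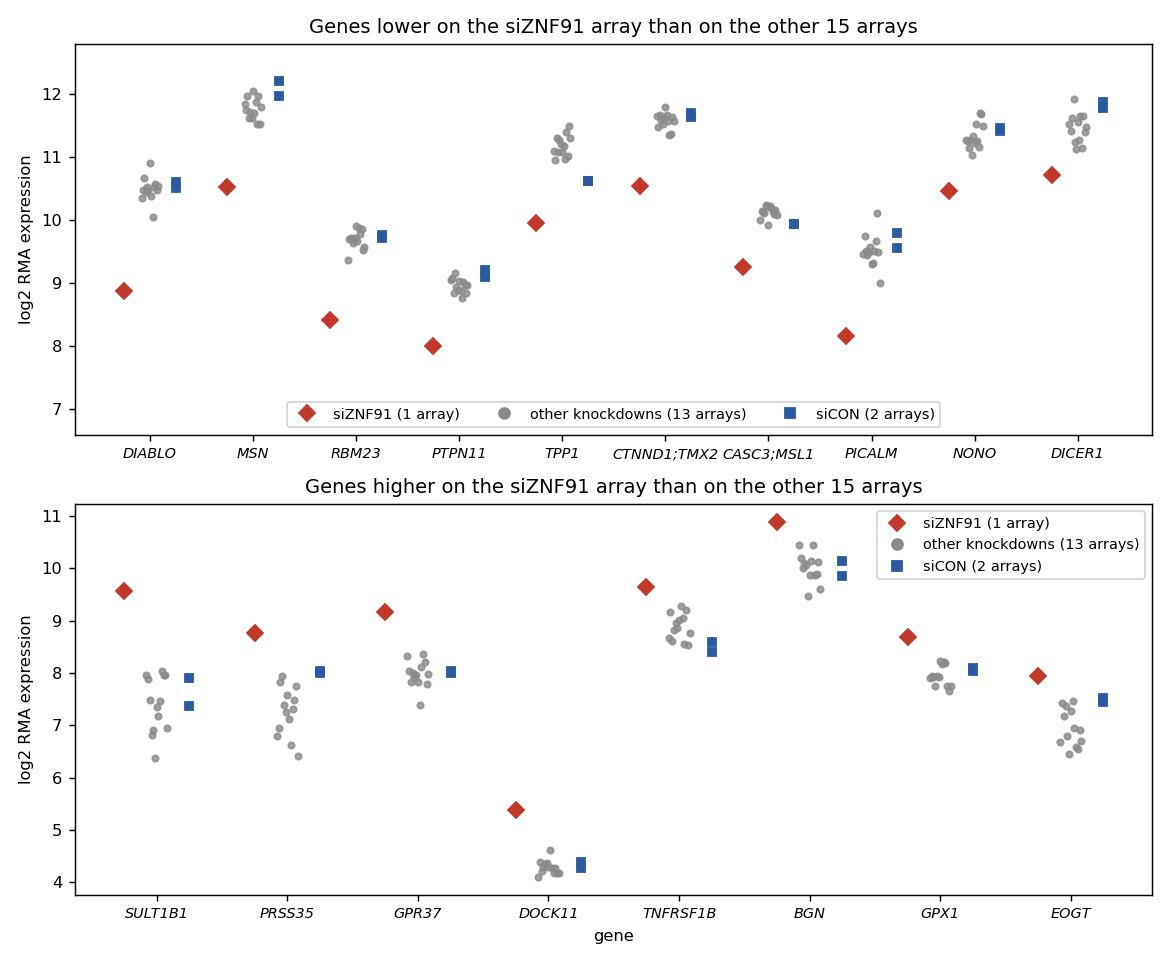
Log2 RMA expression (vertical axis) of 10 clusters lower (upper panel) and 8 higher (lower panel) on the ZNF91 array than on every other array, with the ZNF91 array as red diamonds, the 13 other knockdowns as grey circles and the 2 siCON arrays as blue squares. DIABLO lies 1.17 below the nearest other array and SULT1B1 lies 1.53 above it.

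Further genes lay below all other arrays without passing the test. DICER1, the nuclease that makes small RNAs, was at 10.72 on the ZNF91 array, at 11.13, 11.49 and 11.93 on the other knockdowns and at 11.88 and 11.78 on siCON (limma adjusted p = 0.811 against the 13 others). PGK1, a glycolytic kinase, was at 12.43 on the ZNF91 array, at 12.86, 13.16 and 13.31 on the other knockdowns and at 13.21 and 13.35 on siCON (limma adjusted p = 0.302). DICER1 and PGK1 are not among the 15 farthest below. Those 15 include GPR137B (−1.23 from the 13 others), TDP1, a DNA repair phosphodiesterase (−0.86), MPV17 of the inner mitochondrial membrane (−0.86), PCYOX1L (−0.82), NARF (−0.88) and PIP4P1 (−0.71). PIP4P1 was the last of the 15, at 0.47 below the other arrays, and SF3B3, a splicing factor subunit just outside, was at 0.47 as well. SF3B3 was called lower than siCON (−0.99, limma adjusted p = 0.0284), a call that was lost without siCON 24 h (0.188) and without siCON 72 h (0.213).

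NONO, which encodes a paraspeckle RNA-binding protein, was at 10.46 on the ZNF91 array, at 11.05, 11.27 and 11.70 on the other knockdowns and at 11.42 and 11.47 on siCON. Its difference from the 13 others was −0.88 ± 0.21 (limma adjusted p = 0.255). The 19 clusters whose numbers follow that of NONO, starting at 3980889, have no symbol in the annotation used, and they were low together on the ZNF91 array. All 19 were below both siCON arrays and 16 below all other 15 arrays, against 34.7% and 3.98% of all clusters. The run was singled out after its values were seen, so these counts describe it only. The differences of the 19 from the 13 others lay between −1.14 and −0.44, with a median of −0.93. On the 13 other knockdown arrays the same median, each set against the rest, lay between −0.15 (ZNF431) and 0.27 (ZNF528). Of the 23 clusters called lower than the 13 others, 10 belong to this run, 1 is another cluster without a symbol, 10 have 1 symbol and 2 several. With the run left out, 7 clusters were called lower: those of DIABLO, RBM23, MSN, TPP1, PTPN11, CTNND1 with TMX2, and CASC3 with MSL1. Which transcripts the run measures was not determined.

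**Figure D4:**
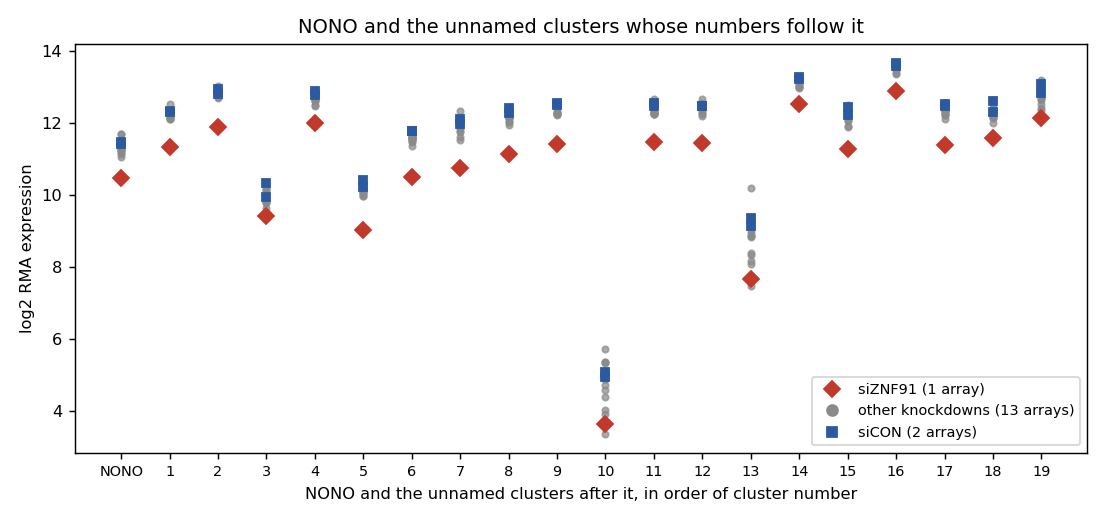
Log2 RMA expression (vertical axis) of NONO and the 19 unnamed clusters after it in order of cluster number (horizontal axis), with the ZNF91 array as red diamonds, the 13 other knockdowns as grey circles and the 2 siCON arrays as blue squares. The ZNF91 array is the lowest of the 16 at 16 of the 19 unnamed clusters.

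Genes higher on the ZNF91 array than on all others mostly did not pass the test. SULT1B1, a cytosolic sulfotransferase, was at 9.57 on the ZNF91 array, at 6.37, 7.46 and 8.04 on the other knockdowns and at 7.91 and 7.37 on siCON. It lay 1.53 above every other array, with a difference of 2.16 ± 0.49 (SE) from the 13 others (limma adjusted p = 0.214). PRSS35, of the serine protease family, was at 8.76 on the ZNF91 array, at 6.42, 7.31 and 7.95 on the other knockdowns and at 8.03 and 8.0 on siCON (limma adjusted p = 0.632). GPR37, an orphan G protein-coupled receptor, was at 9.17 on the ZNF91 array, at 7.39, 7.97 and 8.37 on the other knockdowns and at 8.04 and 8.0 on siCON (limma adjusted p = 0.0893).

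The only cluster called higher than the 13 others was DOCK11, an exchange factor for the GTPase CDC42. It was at 5.38 on the ZNF91 array, at 4.10, 4.27 and 4.62 on the other knockdowns and at 4.38 and 4.28 on siCON, a difference of 1.10 ± 0.15 from the 13 others (limma adjusted p = 0.00472). All these levels lie in the dimmest 25% of clusters, and the files hold no detection call for them.

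The rest of the 15 genes farthest above the other arrays lay closer to them. TNFRSF1B, the TNF receptor 2, was at 9.65 on the ZNF91 array, at 8.54, 8.86 and 9.28 on the other knockdowns and at 8.60 and 8.41 on siCON. BGN, which encodes the matrix proteoglycan biglycan, was at 10.89 on the ZNF91 array, at 9.46, 10.07 and 10.45 on the other knockdowns and at 10.14 and 9.86 on siCON. GPX1, a glutathione peroxidase, was at 8.70 on the ZNF91 array, at 7.66, 7.93 and 8.24 on the other knockdowns and at 8.03 and 8.09 on siCON. EOGT, which adds GlcNAc to EGF domains, was at 7.95 on the ZNF91 array, at 6.46, 6.91 and 7.46 on the other knockdowns and at 7.52 and 7.44 on siCON. None of these passed the test, and neither did CCDC110 (0.99 from the 13 others), B3GNT5 (0.81), a glycolipid transferase, ATG101 (0.86), an autophagy factor, SLC36A1 (0.78), a lysosomal amino acid transporter, SULF1 (0.73), a heparan sulfatase, SALL1 (0.72), a zinc finger transcription factor, DYRK3 (0.63), a kinase, or TRAK2 (0.62), a mitochondrial transport adaptor. TNFRSF1B was the last of the 15, at 0.37 above the other arrays, and FUT8, a fucosyltransferase just outside, was at 0.36.

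Some large differences from siCON lay inside the range of the 13 other knockdowns. TMCO1, a calcium channel of the endoplasmic reticulum, was at 11.76 on the ZNF91 array, at 11.12, 11.46 and 11.77 on the other knockdowns and at 10.23 and 9.99 on siCON. PAPSS2, which makes the sulfate donor used by sulfotransferases, was at 10.25 on the ZNF91 array, at 9.42, 10.02 and 10.36 on the other knockdowns and at 8.61 and 8.31 on siCON. FAM114A1 was at 10.25 on the ZNF91 array, at 9.37, 9.71 and 10.39 on the other knockdowns and at 8.64 and 8.44 on siCON. In these genes all 14 knockdowns lay above both siCON arrays, and the ZNF91 array was inside the range of the others. POPDC1, a membrane protein that binds cAMP, and CTSO, a cysteine cathepsin, completed the 5 highest differences inside that range. POPDC1 was 1.84 above siCON on the ZNF91 array but 0.56 above it in the mean of the 13 others, of which 9 lay above both siCON arrays. CTSO was 1.67 above siCON on the ZNF91 array, and 11 of the 13 others lay above both siCON arrays. SULT1B1, at 1.93 above siCON, differed more than these 5 and was outside the range.

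Among clusters with 1 symbol outside the dimmest 25%, 5 had the lowest differences from siCON inside the range of the other knockdowns. They were POSTN (−2.28), which encodes the matrix protein periostin, KIF5C (−1.81), a neuronal kinesin, and DDAH1 (−1.51), which degrades methylarginines. The others were E2F8 (−1.50), a cell cycle repressor, and KBTBD8 (−1.45), a ubiquitin ligase adaptor. In these 5 genes all 14 knockdowns lay below both siCON arrays. KIF5C was at 8.71 on the ZNF91 array, at 8.65, 9.67 and 10.24 on the other knockdowns and at 10.41 and 10.62 on siCON, so that only the IGF2R knockdown was lower. ENPP5 (−2.25 from siCON) and SI (−1.64) lay inside the range of the other knockdowns too. They were not ranked with these 5 because they are in the dimmest 25% of clusters by their means, with no detection call. ENPP5 was at 5.12 on the ZNF91 array, at 4.92, 5.36 and 6.21 on the other knockdowns and at 7.33 and 7.41 on siCON. SI, which encodes sucrase-isomaltase, was at 4.24 on the ZNF91 array, at 4.17, 4.37 and 4.53 on the other knockdowns and at 5.86 and 5.90 on siCON, the lower call against siCON with the smallest adjusted p (0.000266 by limma). CLDN1, a tight junction claudin, differed by −1.94 from siCON on the ZNF91 array and was outside the range: it was at 10.97 there, at 11.40, 12.17 and 12.81 on the other knockdowns and at 12.91 and 12.91 on siCON. CLDN1 was called lower than siCON (limma adjusted p = 0.0417) but not lower than the 13 others (0.357), and the call was lost without siCON 24 h (0.227) and without siCON 72 h (0.229).

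The gene lists moved little on the ZNF91 array when set against the other knockdowns. Over all 14232 genes with a cluster of their own, the median difference from the 13 others was −0.03 and 43.2% of genes were above the mean of the 13. Of these genes, 3.21% were above all other 15 arrays and 3.55% below them, and 50.6% were above both siCON arrays and 32.4% below both, which are the shares to set beside each list's counts. Among 32 measured interferon response genes, which defend against viruses and sense RNA, 28 were above that mean, with a median of 0.26. Of these, 4 (12.5%, against 3.21% of all genes) were above all other 15 arrays and none passed limma: IFI44L, TAP1, a transporter of antigen peptides, PSMB8, an immunoproteasome subunit, and IRF1, a transcription factor. IFI44L was at 8.87 on the ZNF91 array, at 6.73, 7.74 and 8.80 on the other knockdowns and at 8.40 and 7.48 on siCON. TAP1 was at 10.82 on the ZNF91 array, at 9.10, 10.18 and 10.65 on the other knockdowns and at 10.14 and 9.78 on siCON. IFIT1, which heads the list, went the other way against siCON: it was at 8.65 on the ZNF91 array, at 7.71, 8.54 and 9.09 on the other knockdowns and at 9.25 and 9.04 on siCON. Of the 32 genes, 23 (71.9%) were above both siCON arrays and 2 (6.25%) below both. IFNB1, which encodes interferon beta, was at 4.27 on the ZNF91 array and at 4.43 and 3.98 on siCON. The median of the list over siCON was 0.26 on the ZNF91 array and higher on the arrays of GTF2I (0.40), IGFBP2 (0.36) and ZNF85 (0.32), and the siCON arrays themselves were at 0.12 and −0.12 about their mean. On the ZNF91 array it was 0.38 without siCON 24 h and 0.13 without siCON 72 h.

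The machinery that KRAB zinc finger proteins use, and genes derived from the elements they silence, had list medians near 0 against the 13 other knockdowns. Of 26 corepressor and heterochromatin genes the median was −0.01 from the 13 others and −0.18 from siCON, where 20 of 26 were below both siCON arrays, with TASOR, a subunit of the HUSH silencing complex, above all other 15 arrays (0.65) and the chromatin remodeler ATRX below them (−0.44). Of 19 genes derived from retroviruses and transposons the median was 0.00 from the 13 others and 0.05 from siCON, with NYNRIN below all other 15 arrays. NYNRIN was at 8.58 on the ZNF91 array, at 9.41, 9.59 and 10.07 on the other knockdowns and at 8.92 and 8.98 on siCON (limma adjusted p = 0.0625 against the 13 others). Transcripts of the retrotransposons themselves have no named cluster among these values. Of 14 genes that restrict transposons or sense their RNA the median was 0.08 from the 13 others and 0.01 from siCON, with TLR3, a receptor of double-stranded RNA, above all other 15 arrays (0.47). Of 13 genes of the small RNA machinery the median was −0.05 from the 13 others and −0.17 from siCON, where 10 of 13 were below both siCON arrays, with DICER1 and TARBP2, its partner protein, below all other 15 arrays.

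**Figure D5:**
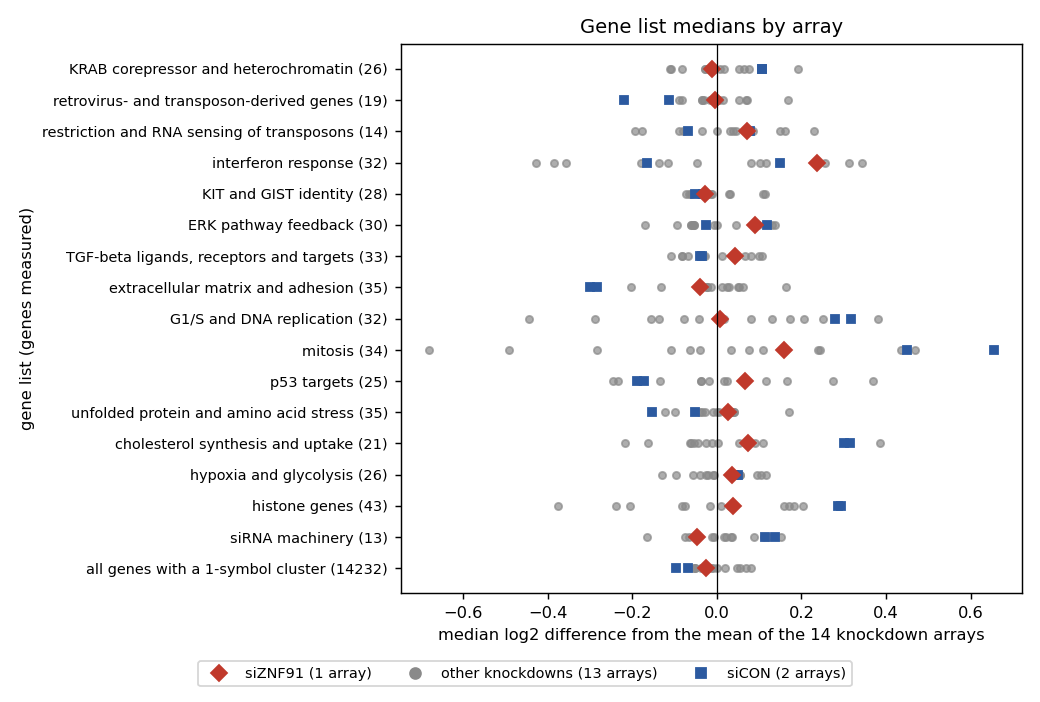
Median log2 difference of each gene list from the mean of the 14 knockdown arrays (horizontal axis), with the ZNF91 array as red diamonds, the 13 other knockdowns as grey circles and the 2 siCON arrays as blue squares. The ZNF91 array is inside the range of the other knockdowns in every list drawn, including interferon response (32 genes) and mitosis (34 genes). The list of 19p12 zinc finger genes (8 genes) is not drawn. On it the ZNF91 array was outside that range, at −0.55, with the next lowest, the ZNF431 knockdown, at −0.33.

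On lists of proliferation the ZNF91 array lay inside the range of the other knockdowns, of which not all shifted from siCON. Their medians from siCON ran between −1.24 (IGFBP2) and −0.04 (ZNF43) for mitosis. They ran between −0.71 (IGFBP2) and 0.04 (ZNF43) for G1/S and DNA replication, and between −0.10 (ZNF708) and 0.48 (ZNF431) for p53 targets. For 34 mitosis genes the median was −0.34 from siCON but 0.17 from the 13 others, and 0 of them lay outside the range of the other 15 arrays. For 32 genes of the G1/S phase and DNA replication the medians were −0.29 from siCON and 0.01 from the 13 others, with GINS2 and MCM3, both parts of the replicative helicase, below all other 15 arrays and CCND3, a G1 cyclin, above them. For 25 p53 targets the medians were 0.28 from siCON and 0.07 from the 13 others, with MDM2, the ubiquitin ligase of p53, below all other 15 arrays.

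The lists closest to the tumor type had medians between −0.04 and 0.10 from the 13 other knockdowns, and the extracellular matrix list was higher against siCON. For 28 genes of KIT signalling and GIST identity the median was 0.05 from siCON and −0.03 from the 13 others, and KITLG, the KIT ligand, was the 1 member above all other 15 arrays (0.77 from the 13 others). For 30 ERK feedback genes the median was 0.08 from siCON and 0.10 from the 13 others, with IER2 alone above all other 15 arrays. For 33 TGF-beta genes the median was 0.03 from siCON and 0.05 from the 13 others, with the receptor TGFBR1 above all other 15 arrays (0.52) and TGFBR3 below them (−0.51). For 35 extracellular matrix and adhesion genes the median was 0.25 from siCON and −0.04 from the 13 others, and 30 of 35 were above both siCON arrays. Of these, BGN, LAMB1 and ITGB5 (8.57%) were above all other 15 arrays and ITGAV and COL5A2 (5.71%) below them, against 3.21% and 3.55% of all genes. Stress and metabolism lists (35 unfolded protein response genes, 26 hypoxia and glycolysis genes, 21 cholesterol genes and 43 histone genes) had medians between 0.03 and 0.08 from the 13 others. From siCON these medians were 0.17 for the unfolded protein response, 0.07 for hypoxia and glycolysis, −0.19 for cholesterol genes and −0.17 for histone genes. In all these lists 0 genes passed limma in either contrast.

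Of the 8 genes in the study's own table, which were chosen on these samples and are no independent evidence of a direction, the median was −1.29 from siCON and 0.10 from the 13 others, and 0 lay outside the range of the other 15 arrays. MRPL30, a mitochondrial ribosomal protein, was read here from the cluster it has to itself (−0.34 from siCON). There the mean of the 13 other knockdowns differed from siCON by −0.43. At the cluster that MRPL30 shares with C2orf15 the mean of the 13 differed by −1.98, which is the value printed in the study's table. The median of −1.29 thus holds a cluster that does not match that table. With the shared cluster (−1.93) in place of the one read here, the median was −1.58 from siCON and 0.08 from the 13 others. TGFB3, a TGF-beta ligand, was at 8.41 on the ZNF91 array, at 7.25, 7.79 and 8.31 on the other knockdowns and at 9.27 and 9.68 on siCON, so that the ZNF91 array was the closest of the 14 knockdowns to siCON. Of the genes silenced on the other arrays, 5 have a cluster of their own, and on the ZNF91 array ZNF43 was below and ZNF528 above all other 15 arrays, with ZNF528 in the dimmest 25% of clusters. Markers of smooth muscle, neural, epithelial, leukocyte and endothelial cells had list medians between −0.13 and 0.00 from the 13 others, with 0 members outside the range of the other 15 arrays.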

How the data were processed

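RNA from 16 GIST T1 cultures (14 knockdowns and 2 siCON, 1 array each) was hybridized to human exon arrays. The authors deposited log2 values per transcript cluster, made with RMA in oligo on hg19 per the labels (versions not given in the sources used here). These log2 values were used as deposited. Of 22011 clusters, 14432 have 1 gene symbol, 2408 several and 5171 none in the platform annotation, and a gene was read from its brightest cluster with 1 symbol. Limma 3.58.1 (R 4.3.3) fitted 3 groups (ZNF91 knockdown, other knockdowns, siCON), adjusted by Benjamini-Hochberg across every cluster, called at 0.05. With 1 ZNF91 array, its spread was assumed to equal that of the others, and p-values measure the spread between these arrays only. A fold threshold of 1 log2 unit followed the methods. Named were the 15 clusters farthest beyond the other 15 arrays per direction. So were the 5 largest differences from siCON per direction inside the range of the other knockdowns. Both sets were taken among clusters with 1 symbol and a mean at or above the lower quartile. Also named were limma calls, 19p12 neighbours, the study's table and list members beyond the other arrays. The 19p12 clusters with several symbols were included after their values were seen, and the unnamed run and FUT8 were singled out likewise. Members and lists were chosen with earlier results of these data known. The test was tested on simulated data. Alternatives covered scaling, filters, variance models and left-out arrays.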

Additional observations from a re-analysis of the deposited data

How the results depend on the processing

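The medians of the 19p12 clusters on the ZNF91 array kept their sign under every alternative tried and stayed within 1 SD of their reported values. They lay between −0.85 and −0.68 from siCON and between −0.57 and −0.42 from the 13 others. Here and below, the SD is that of the same median over the 13 other knockdowns (0.18 and 0.19 for the 19p12 clusters), and the distance is taken from the reported value. Calls lower than the 13 others stayed between 17 and 30 under other scalings, filters, variance models and sets of arrays, and were 7 without the unnamed run that follows NONO and 6 among clusters with 1 symbol, both chosen after seeing the data. The 1 higher call became 0 with only the clusters at or above the lower tercile, among which DOCK11 is not, and 2 with only the 9 other zinc finger knockdowns or without the 2 arrays farthest from the mean. Against siCON, leaving out a siCON array (fewer samples) left 0 to 1 higher and 5 to 7 lower calls, the fit with no eBayes gave 3 higher, and 9 lower were left without the run and 8 with 1 symbol. Clusters at least 1 log2 unit higher than siCON numbered 140 without siCON 24 h and 97 without siCON 72 h, 51 at or above the lower tercile and 53 with 1 symbol, and the lower ones 92 and 69 under these filters. Clusters above the other arrays numbered 1055, and below them 1452, against the 9 zinc finger knockdowns (fewer samples), with 573 below at or above the lower tercile and 516 with 1 symbol. The cluster of ZNF492, ZNF257, ZNF98 and ZNF729 changed sign, to −0.0105 from the 9 zinc finger knockdowns and, from siCON, to −0.0106 median-centred, −0.0086 quantile-normalized and −0.0385 with the lowess trend removed. No other named difference changed sign, 44 lost and 13 gained a call out of 1333, and 282 of 288 other list medians stayed within 1 SD. No paired analysis was possible because the knockdowns have 1 array each and share no replicate number with the siCON arrays beyond the first. With 1 array, precision is limited by the number of arrays, and no detection call marks the dim clusters.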
